A study of Homo sapiens with 16 samples.

Results

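The 6 transcription factors ZEB1, ZEB2, SNAI1, SNAI2, TWIST1 and TWIST2 were followed across 16 RNA sequencing libraries of Hs578 and TT642 cells. They were picked by symbol, with earlier results of these data known, as 6 of the 20114 genes in the deposited count table. All 6 passed the filter on low counts. Each cell line was studied as 3 derived lines, each with 1 doxycycline-inducible short hairpin RNA (shRNA) against the homeobox factor PRRX1 (hairpins 1, 2 and 3), and as parental cells with no hairpin. The groups were therefore hairpin lines with 3 µg/ml doxycycline (3 libraries per cell line), hairpin lines without it (3 per cell line), parental cells with doxycycline (1 per cell line) and parental cells without it (1 per cell line). No treatment time is stated, nor whether a derived line is 1 clone or a pool. The labels separate the libraries of a group by hairpin and not by culture, so every p-value below reflects the spread among these libraries alone. That spread takes in differences between the hairpins, and part of it may be technical.

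Hs578 carries a breast cancer source label and TT642 a rhabdoid tumour one, while the series design calls both triple-negative breast cancer, the class that lacks hormone receptors and HER2. Across the libraries the oestrogen receptor gene ESR1 was at 0.607 CPM (counts scaled to library size by the trimmed mean of M-values, TMM) or less and the progesterone receptor gene PGR at 3.5 CPM or less, while ERBB2, which encodes HER2, was read at 69.9 to 78.8 CPM in Hs578 and at 109.7 to 173 CPM in TT642. SMARCB1, the gene whose loss marks rhabdoid tumours, was read at 87.7 to 125 CPM in Hs578 and at 28.8 to 41.6 CPM in TT642, so its transcript was not absent from TT642. The 10 epithelial markers together came to 278 to 448 CPM in Hs578 libraries and 1.81 to 5.34 CPM in TT642 libraries. In Hs578 most of this was KRT18 (185 to 401 CPM) and KRT8 (27.7 to 56.4 CPM), with KRT14 at 5.99 to 32.2 CPM, while EPCAM reached at most 0.27 CPM in either line. Of the markers of other cell types, CD3E of T cells and MYOD1, MYF5 and MYOG of skeletal muscle were at 0 in every library, and CDH5 and VWF of endothelium were at 0.183 CPM or less. The muscle gene DES reached 5.20 CPM in TT642, and the blood markers CD14 and PTPRC reached 1.65 and 0.976 CPM in Hs578. In RNA from whole cultures, fewer cells of a type and less RNA per cell cannot be told apart.

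In epithelial-mesenchymal transition (EMT), epithelial cells lose their junctions and take on the shape and motility of mesenchymal cells. The ZEB and SNAI proteins are zinc finger repressors that bind E-box sequences, best known in the promoter of CDH1, which encodes E-cadherin, the adhesion molecule of epithelial junctions. The TWIST proteins are basic helix-loop-helix factors that bind E-boxes as dimers with E proteins such as TCF3, TCF4 and TCF12. PRRX1 is itself counted among the transcription factors of EMT, and in breast cancer all of these genes are known mainly from basal-like and mesenchymal cell lines.

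E-boxes share the letters CANNTG, and the form that ZEB and SNAI proteins favour reads CACCTG, or CAGGTG when the other strand is read. The sequences before the members' own transcription starts are shown to give a view of how this form is spread among them. Windows of the 250 bases before a RefSeq start (build GRCh38.p14, whereas the files use hg19) were at hand for 3 of the 6 members: ZEB1 (7 starts), ZEB2 and TWIST2. Capitals mark CACCTG or CAGGTG. The ZEB1 window is the one with the most matches of its 7, on chr10:31318966-31319215, plus strand. The ZEB2 window is chr2:144520120-144520369, minus strand, and the TWIST2 window chr2:238847835-238848084, plus strand.
ZEB1: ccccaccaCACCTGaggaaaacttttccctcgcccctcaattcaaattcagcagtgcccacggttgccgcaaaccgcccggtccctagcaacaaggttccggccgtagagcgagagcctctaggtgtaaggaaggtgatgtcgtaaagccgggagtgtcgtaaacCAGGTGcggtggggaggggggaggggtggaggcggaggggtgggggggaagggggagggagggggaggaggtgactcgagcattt
ZEB2: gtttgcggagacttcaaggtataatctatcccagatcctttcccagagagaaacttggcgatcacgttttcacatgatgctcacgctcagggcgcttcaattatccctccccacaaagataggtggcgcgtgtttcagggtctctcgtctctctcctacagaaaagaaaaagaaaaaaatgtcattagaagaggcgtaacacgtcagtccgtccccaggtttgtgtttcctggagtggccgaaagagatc
TWIST2: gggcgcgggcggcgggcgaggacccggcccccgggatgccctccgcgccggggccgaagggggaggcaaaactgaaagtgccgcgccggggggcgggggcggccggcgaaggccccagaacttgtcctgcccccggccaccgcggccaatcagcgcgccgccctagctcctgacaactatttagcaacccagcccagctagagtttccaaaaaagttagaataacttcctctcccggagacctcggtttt
The ZEB1 window held 2 matches, whose first bases lie at -242 and -85 from the start. Of the other ZEB1 windows, 1 held a single match and 5 held none. Of the 35116 windows of this length, 2.53% held at least 2 matches and 17.5% at least 1, shares for single windows that do not apply to the best of 7. The ZEB2 window held none but had 1 CANNTG, and the TWIST2 window held no CANNTG at all. At least 1 CANNTG, with CACCTG counted among them, was found in 61.8% of all windows. A match is a string of letters in the reference and was not tested for binding.

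The libraries held 13461527 to 19139654 counts each for Hs578 and 15265227 to 24672906 for TT642. Library measures moved with doxycycline in Hs578, and in part of the TT642 pairs. Mitochondrial transcripts took 3.18%, 4.27% and 5.44% of the counts in hairpins 1, 2 and 3 with doxycycline, against 2.79%, 2.29% and 2.16% without, and 4.16% against 2.73% in the parental pair. In TT642 hairpins 1, 2 and 3 this share was 2.60%, 3.04% and 3.98% with doxycycline, against 2.85%, 2.77% and 2.60% without. The parental TT642 pair had 3.305% with and 3.283% without. The summed FPKM was 590254 to 646202 in treated and 536496 to 561801 in untreated Hs578 hairpin lines, and 594441 in treated and 561568 in untreated parental cells. Summed FPKM in TT642 hairpins 1, 2 and 3 was 583052, 608018 and 610174 with doxycycline, against 585666, 580634 and 578920 without. The parental TT642 pair had 608948 with and 580006 without. The part of these shifts in the results below was not tested.

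PRRX1, the target of the hairpins, was lower with doxycycline in all 6 hairpin pairs. It stood at 37.1, 72.8 and 51.0 CPM in Hs578 hairpins 1, 2 and 3 with doxycycline, against 291, 227 and 262 CPM without. In TT642 it stood at 265, 184 and 513 CPM with doxycycline, against 1213, 1409 and 1301 CPM without. Without a hairpin, PRRX1 was at 298 CPM in treated and 290 CPM in untreated Hs578 cells, and at 1533 CPM in treated and 1484 CPM in untreated TT642 cells. By edgeR's quasi-likelihood test with Benjamini-Hochberg adjustment over the 14035 genes tested, the fall was called in Hs578, with a log2 fold change of -2.28 (SE 0.37, adjusted p = 0.0022). Dropping hairpin 1 lost this call (edgeR adjusted p = 0.060). The TT642 estimate of -2.03 (SE 0.36) missed the threshold of 0.05 (adjusted p = 0.17). It was called in 5 of 17 alternatives, among them DESeq2 (adjusted p = 6.67e-05) and limma on log2(FPKM + 1) (adjusted p = 0.0229), with adjusted p up to 0.874 in the others. Since TT642 began higher, its induced lines held 184 to 513 CPM, a range that overlaps the 227 to 291 CPM of uninduced Hs578 lines.

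How abundant the transcripts of each factor were in each cell line was read from the deposited FPKM, which are scaled by length. The places of ZEB1 and ZEB2 in this order are less certain, since their FPKM per CPM varied more than 2-fold between libraries, from 0.146 to 0.325 for ZEB1 and from 0.148 to 0.300 for ZEB2, with the lowest in Hs578 and the highest in TT642. In the uninduced hairpin lines of Hs578, SNAI2 was the most abundant at 35.8 FPKM, followed by ZEB1 at 15.9, ZEB2 at 13.9, TWIST1 at 11.4, TWIST2 at 3.76 and SNAI1 at 0.931 (means, n = 3). The ranges of ZEB1 and ZEB2 overlapped and those of the other neighbours did not. In the uninduced hairpin lines of TT642, ZEB2 led at 45.4 FPKM, followed by SNAI2 at 40.0, ZEB1 at 6.99, TWIST2 at 2.71, TWIST1 at 0.642 and SNAI1 at 0.530 (means, n = 3). There ZEB2 overlapped with SNAI2, and TWIST1 with SNAI1. With doxycycline the Hs578 hairpin lines had TWIST1 in the second place at 16.8 FPKM, above ZEB1 at 11.2 and ZEB2 at 10.3, with no overlap between TWIST1 and ZEB1. The parental Hs578 libraries showed the same exchange of places by FPKM. With doxycycline TWIST1 was at 22.9 FPKM, above ZEB1 at 16.7. Without it TWIST1 was at 11.8 FPKM, below ZEB1 at 18.9 and ZEB2 at 15.7. In this pair ZEB1 was lower with doxycycline by FPKM but higher by CPM, at 102 against 84.6. In TT642 the doxycycline-treated hairpin lines kept ZEB2 (44.0 FPKM) and SNAI2 (36.1 FPKM) in front, and parental TT642 differed in having SNAI1 above TWIST1 (1.05 and 0.303 FPKM with doxycycline, 1.01 and 0.403 FPKM without).

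**Figure D1:**
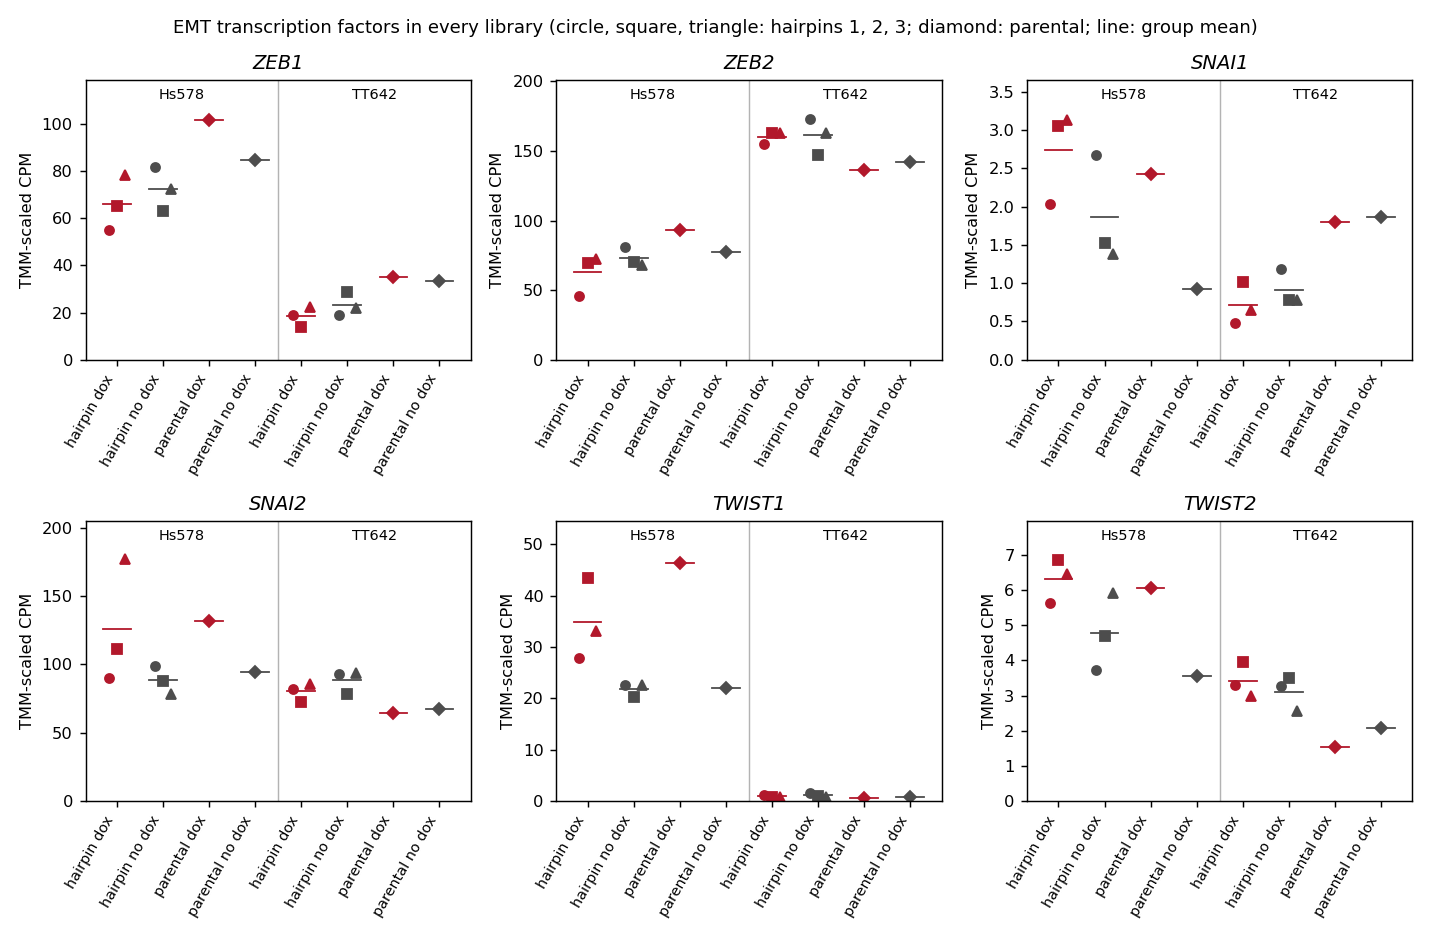
Levels of the 6 transcription factors in each of the 16 libraries, as TMM-scaled CPM (vertical axis, linear, from 0), by cell line, hairpin status and doxycycline. Circles, squares and triangles are hairpins 1, 2 and 3, diamonds are parental cells, red is with and grey without doxycycline, and lines are group means; TWIST1 stands at 20.2 to 46.4 CPM in Hs578 and at 0.514 to 1.59 CPM in TT642, and in the hairpin lines ZEB2 is the one factor whose TT642 points all lie above its Hs578 points.

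The question put to the hairpin lines was whether lowering PRRX1 moves the other EMT factors with it. In Hs578, 1 of the 6 members was called with doxycycline, namely TWIST1, which was higher. That is 16.7% of the members, where 29.3% of all genes tested were called in this comparison (15.2% higher, 14.1% lower), so the members' share was not above the background. The median log2 fold change of the 6 was 0.46, against 0 for all genes. In TT642 none of the 6 was called, where 0.0285% of all genes were (4 genes, 0.0143% in each direction), and none had an unadjusted p under 0.05. Their median was -0.18, against 0 for all genes. DESeq2 and limma on log2(FPKM + 1) also called 0 of 6 in TT642.

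The TWIST factors specify mesoderm and cranial mesenchyme in development. TWIST1 had 27.8, 43.5 and 33.2 CPM in Hs578 hairpins 1, 2 and 3 with doxycycline, against 22.5, 20.2 and 22.5 CPM without. Every induced line was above every uninduced one. The estimate by edgeR was a log2 fold change of 0.68 (SE 0.17, adjusted p = 0.011, higher in 3 of 3 pairs). The call was lost without hairpin 2 (0.43, adjusted p = 0.147), without hairpin 3 (0.73, adjusted p = 0.0753), without the induced hairpin 2 library (0.49, adjusted p = 0.0673) and by limma on log2(FPKM + 0.1) (0.54, adjusted p = 0.112). Its adjusted p lay between 0.00299 and 0.147 in the 17 alternatives run. Parental Hs578 cells, which carry no hairpin, had 46.4 CPM of TWIST1 with doxycycline and 22.0 CPM without. The single parental pair thus differed by 1.07 on the log2 scale, more than hairpins 1 and 3 (0.30 and 0.56) and about as much as hairpin 2 (1.10). Beside this, the summed level of 8 mesenchymal markers was 29796 to 41542 CPM in treated and 20754 to 23229 CPM in untreated Hs578 hairpin lines, and 41612 CPM in treated and 20651 CPM in untreated parental cells. That sum and the mitochondrial share both moved with TWIST1, and their part in its change was not tested.

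In TT642, TWIST1 was near the bottom of the measured range, with 10 to 28 counts per library. It had 1.27, 0.883 and 0.731 CPM in hairpins 1, 2 and 3 with doxycycline, against 1.59, 0.972 and 0.723 CPM without, and 0.514 against 0.697 CPM in the parental pair. These ranges overlapped, and the estimate was -0.23 (SE 0.33, edgeR adjusted p = 0.948). The 95% interval of the TT642 estimate ran from -0.94 to 0.49.

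TWIST2, the paralogue of TWIST1, had 5.64, 6.85 and 6.45 CPM in Hs578 hairpins 1, 2 and 3 with doxycycline, against 3.72, 4.69 and 5.93 CPM without. It was higher in each pair, but the induced hairpin 1 library lay below the uninduced hairpin 3 library, and the change was not called (0.40, SE 0.21, edgeR adjusted p = 0.163). The parental Hs578 pair had 6.07 CPM with and 3.56 CPM without doxycycline. In TT642 hairpins 1, 2 and 3 it had 3.32, 3.95 and 3.00 CPM with doxycycline, against 3.29, 3.5 and 2.56 CPM without (0.13, SE 0.21, edgeR adjusted p = 0.961). The TT642 ranges overlapped, and the parental TT642 pair stood lower, at 1.54 CPM with and 2.09 CPM without doxycycline.

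SNAI2, which encodes the repressor SLUG of neural crest and basal mammary cells, had 90.1, 111 and 177 CPM in Hs578 hairpins 1, 2 and 3 with doxycycline, against 99.1, 88.1 and 78.6 CPM without. The rank order of the 3 hairpins was opposite in the 2 conditions, hairpin 3 had the widest gap, and the groups overlapped. The parental Hs578 pair had 131 CPM with and 94.3 CPM without. The estimate of 0.51 (SE 0.20, 95% interval 0.07 to 0.95) was not called by edgeR (adjusted p = 0.0763). It was called by DESeq2 (adjusted p = 0.0406), without hairpin 1 (0.79, adjusted p = 0.0394) and without the induced hairpin 1 library (0.71, adjusted p = 0.00867), and fell to 0.10 without hairpin 3. In TT642, SNAI2 had 82.4, 72.7 and 85.7 CPM with doxycycline, against 93.1, 78.1 and 94.1 CPM without, and 64.7 against 67.1 CPM in the parental pair. It was slightly lower in all 4 TT642 pairs, within the spread of the groups (-0.14, SE 0.20, edgeR adjusted p = 0.945).

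SNAI1, the gene of the repressor SNAIL that acts early in EMT, was the least abundant member in Hs578, with 16 to 53 counts per library there and 8 to 40 in TT642. In Hs578 hairpins 1, 2 and 3 it had 2.04, 3.05 and 3.13 CPM with doxycycline, against 2.67, 1.52 and 1.38 CPM without, and 2.43 against 0.918 CPM in the parental pair. Hairpins 2 and 3 and the parental pair were higher with doxycycline and hairpin 1 was lower, so the groups overlapped (0.56, SE 0.32, edgeR adjusted p = 0.215). Without hairpin 1 the estimate was 1.09 and was called (adjusted p = 0.0481). In TT642 it had 0.482, 1.02 and 0.654 CPM with doxycycline, against 1.19, 0.778 and 0.779 CPM without, and 1.80 against 1.86 CPM in the parental pair. There the groups overlapped and the pairs had mixed signs (-0.32, SE 0.38, edgeR adjusted p = 0.915).

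ZEB1, which with ZEB2 forms a double-negative loop with the miR-200 family of epithelial cells, had 55.1, 65.2 and 78.1 CPM in Hs578 hairpins 1, 2 and 3 with doxycycline, against 81.8, 62.8 and 72.3 CPM without. Hairpin 1 alone was clearly lower, and the groups overlapped (-0.13, SE 0.19, edgeR adjusted p = 0.652). The parental Hs578 pair had 102 CPM with and 84.6 CPM without doxycycline. In TT642 hairpins 1, 2 and 3 it had 19.1, 13.7 and 22.5 CPM with doxycycline, against 19.0, 28.5 and 21.8 CPM without, and 35.1 against 33.2 CPM in the parental pair. Only hairpin 2 set the TT642 estimate of -0.33 (SE 0.20, edgeR adjusted p = 0.752) apart from 0, and without hairpin 2 it was 0.03.

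ZEB2 had 45.8, 69.6 and 72.6 CPM in Hs578 hairpins 1, 2 and 3 with doxycycline, against 81.0, 70.2 and 68.2 CPM without, and 93.2 against 77.1 CPM in the parental pair. As for ZEB1, the induced hairpin 1 library was the lowest of the 8 Hs578 libraries and the pairs of hairpins 2 and 3 lay close together (-0.22, SE 0.14, edgeR adjusted p = 0.248). In TT642 it had 155, 163 and 163 CPM with doxycycline, against 173, 147 and 163 CPM without, and 136 against 142 CPM in the parental pair. The estimate was -0.01 with a 95% interval of -0.30 to 0.28 (edgeR adjusted p = 1).

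**Figure D2:**
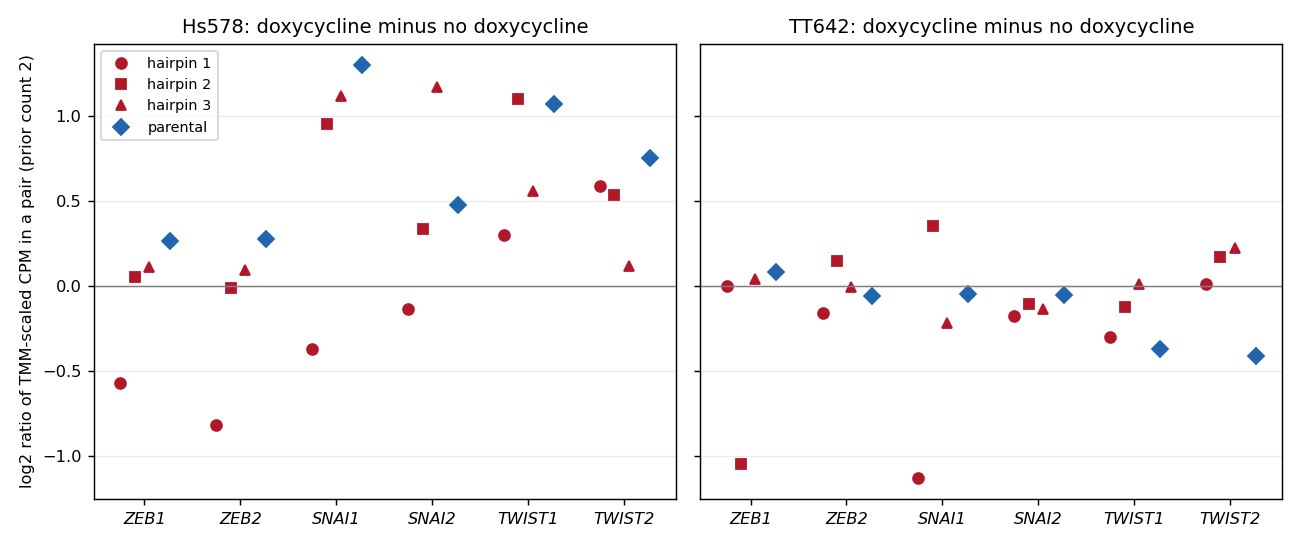
Difference with minus without doxycycline within each pair of libraries (vertical axis, log2 ratio of TMM-scaled CPM with a prior count of 2), in Hs578 on the left and TT642 on the right. Red symbols are hairpins 1 to 3 and blue diamonds the parental pair; TWIST1 lies above 0 in all 4 Hs578 pairs (0.30, 1.10, 0.56 and 1.07), and the blue diamond lies above 0 for all 6 factors in Hs578.

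The difference between the cell lines in the doxycycline effect was tested as an interaction, since a call in one line alone does not show that the lines differ. None of the 6 members was called by edgeR (735 genes, 5.24% of those tested, were, 2.76% with a higher and 2.48% with a lower estimate in Hs578), and DESeq2 and limma on log2(FPKM + 1) also called 0. An unadjusted p under 0.05 was reached by 2 of the 6, and by 3449 of the 14035 genes tested. TWIST1 differed by 0.90 (Hs578 minus TT642, SE 0.38, adjusted p = 0.158) and SNAI2 by 0.65 (SE 0.28, adjusted p = 0.182). SNAI2 was called without the induced Hs578 hairpin 1 library (0.85, adjusted p = 0.0319). SNAI1 differed by 0.88 (SE 0.50), TWIST2 by 0.27, ZEB1 by 0.20 and ZEB2 by -0.21, with adjusted p of 0.30 to 0.71 by edgeR.

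The hairpin effect was then set against the doxycycline effect in cells that have no hairpin. Net of the parental pair, no member was called in Hs578, where 0.406% of all genes were, nor in TT642, where 0% were, and in neither line did a member reach an unadjusted p under 0.05 or a call by DESeq2 or limma on log2(FPKM + 1). In Hs578 the net estimate of TWIST1 was -0.40 (SE 0.35, edgeR adjusted p = 0.662), which is below 0 because the parental pair differed more than the mean of the hairpin pairs. ZEB1, ZEB2, SNAI1 and TWIST2 also had net estimates below 0, at -0.39, -0.50, -0.84 and -0.37, and SNAI2 was at 0.03 (adjusted p 0.442 to 1 by edgeR). All 6 factors had more CPM with than without doxycycline in the parental Hs578 pair, by 0.26 for ZEB1 to 1.30 for SNAI1 on the log2 scale. In TT642 the net estimates ran from -0.41 for ZEB1 to 0.57 for TWIST2 (edgeR adjusted p = 1 for each). Each parental group is a single library, assumed to vary like the hairpin groups. PRRX1 itself was not called by edgeR in this test, with net estimates of -2.32 (SE 0.71) in Hs578 and -2.07 (SE 0.70) in TT642. The absence of a call for a member here thus says little about smaller changes.

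**Figure D3:**
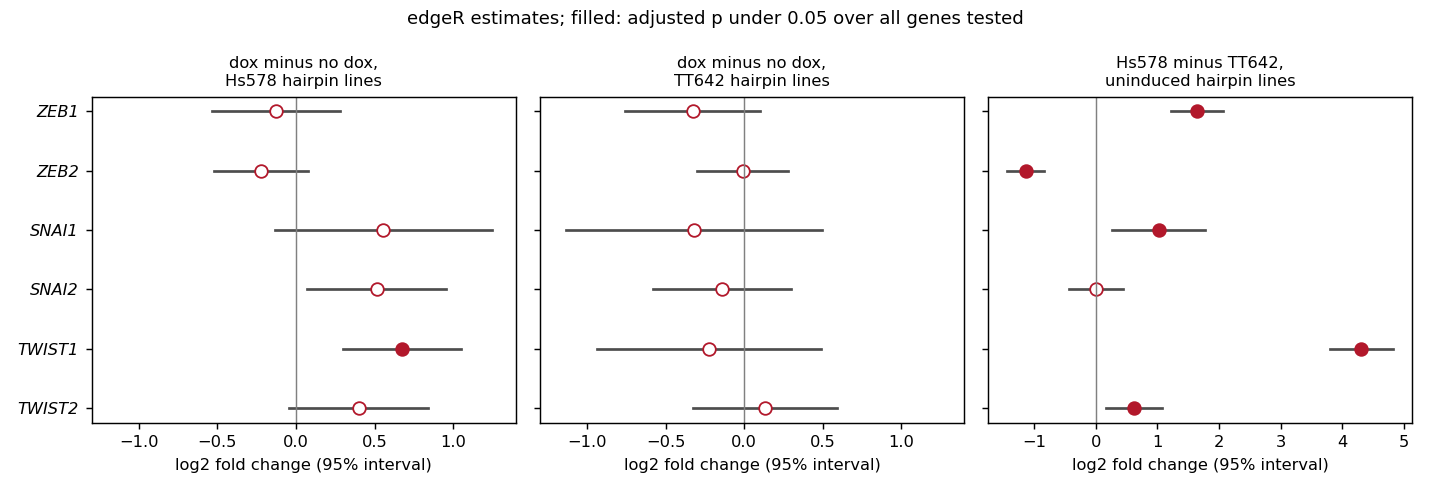
Estimates by edgeR of the log2 fold change (points) with 95% intervals (lines) for the 6 factors, with doxycycline against without in the hairpin lines of Hs578 (left) and TT642 (middle), and for Hs578 against TT642 in uninduced hairpin lines (right, with a wider axis). Filled points have an adjusted p under 0.05 over all genes tested; these are TWIST1 on the left (0.68) and all but SNAI2 on the right.

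The uninduced hairpin lines were used to compare the factors between the cell lines. Of the 6, 4 were higher in Hs578 and 1 was lower, a share of 83.3% where 80.8% of all genes differed (41% higher, 39.7% lower), so the share is that of the background and the sizes carry the description. TWIST1 had the widest gap, with 20.2 to 22.5 CPM in Hs578 against 0.723 to 1.59 CPM in TT642 (log2 fold change 4.31, SE 0.24, edgeR adjusted p = 3.63e-10). ZEB1 was at 62.8 to 81.8 CPM in Hs578 against 19.0 to 28.5 CPM in TT642 (1.64, SE 0.20, edgeR adjusted p = 4.64e-06). Its paralogue went the other way: ZEB2 was at 68.2 to 81.0 CPM in Hs578 against 147 to 173 CPM in TT642 (-1.14, SE 0.14, edgeR adjusted p = 2.52e-06). These 3 calls held in all 15 alternatives.

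SNAI1 (1.02, SE 0.35, edgeR adjusted p = 0.0149) and TWIST2 (0.61, SE 0.21, edgeR adjusted p = 0.0154) were also higher in Hs578, with less certainty. SNAI1 lost its call without hairpin 1 (adjusted p = 0.0518), without the uninduced Hs578 hairpin 1 library (0.112) and without the uninduced TT642 library of hairpin 2 (0.0529) or hairpin 3 (0.0502). TWIST2 lost its call without hairpin 3 (adjusted p = 0.31) and without the uninduced hairpin 3 library of Hs578 (0.102) or TT642 (0.0677). SNAI2 had 78.6 to 99.1 CPM in Hs578 against 78.1 to 94.1 CPM in TT642, a difference of 0.0025 with a 95% interval of -0.44 to 0.44 (edgeR adjusted p = 0.992). The parental cells without doxycycline showed ZEB1, SNAI2, TWIST1 and TWIST2 higher and ZEB2 lower in Hs578, while SNAI1 was lower there, at 0.918 CPM in Hs578 against 1.86 CPM in TT642.

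Carrying a hairpin without induction was not linked to a called change of any member. In Hs578 0% of all genes were called between uninduced hairpin lines and parental cells, and no member had an unadjusted p under 0.05. In TT642 0.919% of all genes were called (0.157% higher and 0.762% lower in the hairpin lines) and 0 of 6 members, of which 1, SNAI1, had an unadjusted p under 0.05. DESeq2 and limma on log2(FPKM + 1) called no member in either line. SNAI1 had 1.19, 0.778 and 0.779 CPM in TT642 hairpins 1, 2 and 3 against 1.86 CPM in the parental library (-1.02, SE 0.46, edgeR adjusted p = 0.396). ZEB1 had 19.0, 28.5 and 21.8 CPM in the same lines against 33.2 CPM in parental TT642 (-0.52, SE 0.27, edgeR adjusted p = 0.475), so both parental TT642 libraries held more ZEB1 and SNAI1 than any TT642 hairpin library.

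The ZEB genes gave different pictures by counts and by the deposited FPKM. FPKM per CPM of ZEB1 varied 2.23-fold over the 16 libraries and that of ZEB2 2.03-fold, against 1.28-fold to 1.35-fold for the other 4 members and PRRX1. By FPKM, ZEB1 had log2 ratios with over without doxycycline of -0.85, -0.16 and -0.51 in Hs578 hairpins 1, 2 and 3 and -0.17 in the parental pair, where the CPM gave -0.57, 0.05, 0.11 and 0.26. For ZEB2 the FPKM gave -0.80, -0.25, -0.28 and -0.19, where the CPM gave -0.82, -0.01, 0.09 and 0.27. Both genes were thus lower with doxycycline in all 4 Hs578 pairs by FPKM, and in 1 and 2 of the 4 by counts. By limma on log2(FPKM + 1), ZEB2 was called lower in the Hs578 hairpin lines (-0.41, adjusted p = 0.0284) and ZEB1 was not. On the FPKM scale the median of all genes in that comparison was itself shifted, to -0.08 with a pseudocount of 1 and -0.12 with 0.1, and 30.3% of the called genes were higher, against 51.9% by counts. What separates the FPKM from the counts for these genes was not tested.

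**Figure D4:**
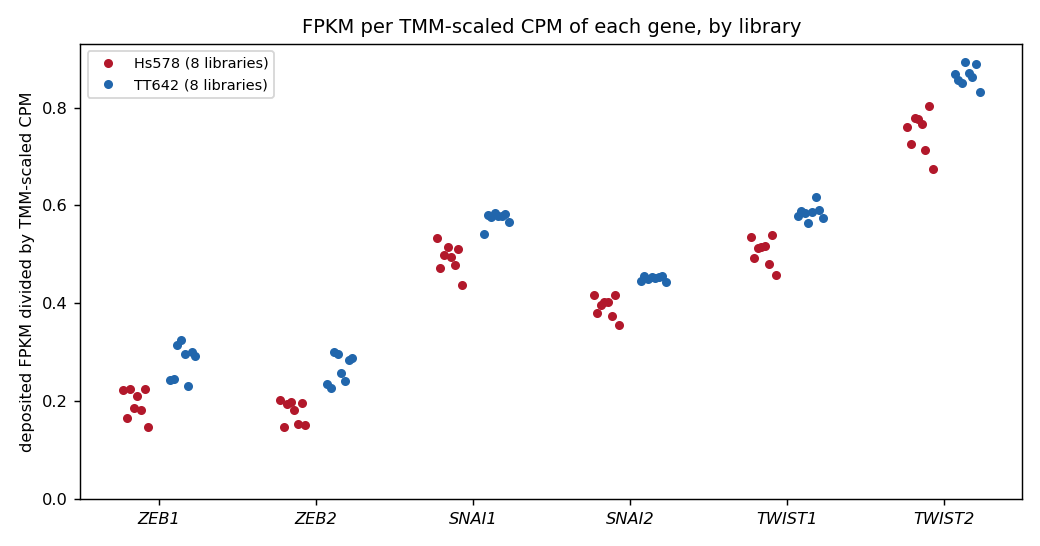
Deposited FPKM divided by TMM-scaled CPM (vertical axis, linear, from 0) for each factor, with 1 point per library, Hs578 in red and TT642 in blue. The highest library, from TT642, is 2.23 times the lowest, from Hs578, for ZEB1 and 2.03 times for ZEB2, against 1.28 to 1.35 times for the other 4 factors.

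CDH1, the classic target of ZEB, SNAI and TWIST repression, had 1 to 6 counts in every library (0.068 to 0.366 CPM in Hs578, 0.0465 to 0.103 CPM in TT642) and was below the filter, so no change could be detected at this depth. The 2 textbook mesenchymal readouts were high. VIM, the intermediate filament vimentin, was at 4081 to 5874 CPM in Hs578 and 9915 to 11007 CPM in TT642, and was not called with doxycycline in the hairpin lines of Hs578 (0.20, edgeR adjusted p = 0.137) or TT642 (0.06, adjusted p = 0.961). CDH2, encoding N-cadherin, was at 301 to 415 CPM in Hs578 and 73.7 to 499 CPM in TT642 and was not called in either line (0.07, adjusted p = 0.934, and -0.24, adjusted p = 0.968). The TT642 hairpin lines lay at 73.7 to 247 CPM of CDH2 over both conditions, below the 2 parental TT642 libraries at 473 and 499 CPM. Fibronectin (FN1), another mesenchymal readout, was not shared by the lines, at 10219 to 17802 CPM in Hs578 and 0.194 to 3.96 CPM in TT642.

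The genes of proteins that work with or around these factors were counted by list in the Hs578 hairpin lines. There 29.3% of all genes were called (15.2% higher, 14.1% lower). The lists were chosen with earlier results of these data known, so their shares are a description and not an independent test. Net of the parental pair, edgeR called none of the genes of any of the 8 lists in Hs578, and not PRRX1 itself. Of all 14035 genes it called 57 (0.406%). No list gene was thus shown to differ from the response of cells without a hairpin, but at so low a share this says little about the lists. In that comparison an unadjusted p under 0.05 was reached by 5 of 17 co-repressors, 4 of 14 TGF-beta genes, 3 of 20 epithelial and 2 of 38 mesenchymal genes, 2 of 16 kinases and ligases, 1 of 15 other EMT factors, 1 of 8 opposing factors and none of the 7 TWIST partners, and by 1996 of all 14035 genes. Of 7 TWIST partners tested, E and ID proteins, 1 rose, 1 fell and 5 were not called, a share of 28.6%. TCF4, an E protein, had 19.3, 21.9 and 22.5 CPM in hairpins 1, 2 and 3 with doxycycline, against 19.6, 11.1 and 13.9 CPM without (0.51, SE 0.16, edgeR adjusted p = 0.0238). TCF12, another E protein, had 88.1, 76.8 and 66.1 CPM with doxycycline, against 98.7 to 121 CPM without (-0.47, SE 0.11, edgeR adjusted p = 0.0065). The 2 E proteins thus moved in opposite directions while TWIST1 rose.

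Of 17 co-repressors and chromatin partners of ZEB and SNAI, 4 rose and 5 fell (52.9%, against 29.3% of all genes). Among the LIM proteins of the Ajuba family, which act as co-repressors of SNAI proteins, LIMD1 (-0.49, SE 0.085, edgeR adjusted p = 0.00147) and AJUBA (-0.41, adjusted p = 0.0224) fell and WTIP (0.43, adjusted p = 0.0187) rose, although WTIP was at -0.02 by FPKM. Of 16 kinases, ubiquitin ligases and stabilisers of the SNAI, TWIST and ZEB proteins, none rose and 5 fell (31.2%, near the background of 29.3%), including GSK3B, the kinase that marks SNAIL for degradation, with 159, 142 and 124 CPM in Hs578 hairpins 1, 2 and 3 with doxycycline, against 194, 192 and 189 CPM without (-0.44, SE 0.09, edgeR adjusted p = 0.00433). GSK3B lost the call without hairpin 3 (edgeR adjusted p = 0.0915). It was called in the test of the difference between the lines (-0.53, edgeR adjusted p = 0.0411). There it was alone in its list (6.25%, against 5.24% of all genes). From the other lists that test also called TAGLN (2.37), TNC (1.89), TGFBR3 (-1.62), PKP3 (1.06), AXL (-0.60), TJP1 (-0.54) and SMAD4 (-0.36). With libraries left out, it called 2 to 2082 of all genes. In the Hs578 hairpin lines ATM, a kinase that stabilises ZEB1, fell as well (-0.46, edgeR adjusted p = 0.00222). FBXO11, a ligase for SNAIL (-0.32), and CSNK1A1, a casein kinase (-0.30), also fell there. Protein levels were not measured.

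Among 15 other EMT-related transcription factors, 1 rose and 2 fell (20%, below the 29.3% of all genes), with TEAD2 at 0.34, SOX9 at -0.86 and ZNF281 at -0.53. Of 8 factors that oppose EMT, 1 was called (12.5%, also below the 29.3%): KLF4, which maintains epithelial genes in breast cells, had 23.1, 29.0 and 15.9 CPM in Hs578 hairpins 1, 2 and 3 with doxycycline, against 56.1, 64.7 and 48.0 CPM without (-1.32, SE 0.19, edgeR adjusted p = 0.000745). The parental Hs578 pair had 33.4 CPM of KLF4 with and 55.5 CPM without doxycycline. Of 14 TGF-beta ligands, receptors, SMADs and feedback genes, the pathway best known for inducing the SNAI and ZEB genes, 1 rose and 5 fell (42.9%, against 29.3% of all genes; median -0.22). The receptors TGFBR3 (-0.99), TGFBR1 (-0.41) and TGFBR2 (-0.39) and the shared effector SMAD4 (-0.32) were among those that fell.

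Of 38 mesenchymal genes, 15 rose and 3 fell in the Hs578 hairpin lines (47.4%, against 29.3% of all genes; median 0.29). Net of the parental pair, none of the 38 was called by edgeR (0.406% of all genes were) and their median was -0.23. The net medians of the other lists were -0.26 for TGF-beta genes, -0.51 for opposing factors and -0.32 for epithelial genes. They were -0.21 for other EMT factors, -0.11 for kinases and ligases, 0.14 for co-repressors and 0.03 for TWIST partners. Over the alternatives 5 to 18 of the 38 mesenchymal genes rose, with 9 without hairpin 2 and 5 without hairpin 3. Of all genes tested, 1354 of 13931 rose without hairpin 2 and 376 of 13965 without hairpin 3. The largest changes were those of the actin-binding protein TAGLN (2.24, SE 0.34), the collagen COL1A1 (2.08, SE 0.63), the matrix glycoprotein TNC (1.89, SE 0.26) and the actin ACTA2 (1.87, SE 0.30), with edgeR adjusted p of 0.000956 to 0.0356. TAGLN had 218, 219 and 501 CPM in hairpins 1, 2 and 3 with doxycycline, against 55.3, 83.3 and 59.8 CPM without, and 122 against 65.2 CPM in the parental pair. Of 20 epithelial genes tested, out of 32 in the table, 4 rose and 1 fell (25%, below the 29.3% of all genes). Their median was -0.11. The 4 that rose were the protease inhibitor SPINT1 (1.39), the tricellular junction receptor LSR (1.16), the keratin KRT7 (0.94) and the desmosomal plakophilin PKP3 (0.53). SPINT1, LSR and KRT7 were near the threshold (edgeR adjusted p of 0.0423 to 0.0483). They lost the call in 11, 10 and 11 of the 17 alternatives. Of the 26 genes taken from these 8 lists, up to 4 called genes with the largest changes in each, ACTA2, ATM, KLF4, LIMD1, TAGLN, TGFBR3 and TNC were called in all 17 alternatives, and the other 19 lost the call in 1 to 11 of them. The counts of called genes in every list but that of factors that oppose EMT moved by more than 1.5 times when 1 hairpin or library was left out. Without hairpin 3, 840 of all 13965 genes tested were called, against 4118 of 14035 with all libraries. No TWIST partner was called there, and 1 co-repressor, 1 of the kinases and ligases, 1 TGF-beta gene and 1 epithelial gene were. None of the 8 lists had a called gene in the TT642 hairpin lines by edgeR. An unadjusted p under 0.05 was reached in TT642 by 11 of 38 mesenchymal genes, 3 of 20 epithelial genes, 2 of 14 TGF-beta genes, 1 of 17 co-repressors, 1 of 15 other EMT factors, 1 of 8 opposing factors, and none of the 7 TWIST partners or the 16 kinases and ligases. Of all 14035 genes, 1098 did so.

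Between the cell lines, where 80.8% of all genes were called, the share called in a list ran from 70.6% of the co-repressors, and 75% of both the kinases and ligases and the opposing factors, to 100% of the other EMT factors. In uninduced hairpin lines, 28 mesenchymal genes were higher in Hs578 and 9 lower (97.4% of 38), and 10 epithelial genes were higher and 7 lower (85% of 20). Of the 15 other EMT-related transcription factors tested, 10 were higher and 5 lower in Hs578. Of the 7 TWIST partners none was higher and 6 were lower in Hs578 (85.7%, against 80.8% of all genes, 39.7% lower). Those with the largest changes were of both kinds. They were the ID proteins ID4 (-10.43, SE 0.55) and ID1 (-0.98, SE 0.28) and the E proteins TCF4 (-1.57, SE 0.15) and TCF12 (-1.27, SE 0.11). TWIST1 itself was higher in Hs578.

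The genes whose levels ran most like each member across the 16 libraries were taken from 10350 or 10351 genes whose log2 CPM averaged 2 or more, after centring within each cell line, as a description with no test. The points share their cell line, library and depth. TWIST1 was closest to NFATC4 (r = 0.89), a calcium-regulated transcription factor, MAN2B2 (0.882) and MFAP2 (0.873), a component of elastic microfibrils. SNAI2 was closest to ZBTB47 (0.903) and to the collagen genes COL27A1 (0.887) and COL5A3 (0.873), and TWIST2 to SUV420H2 (0.896), SLC38A10 (0.889) and the procollagen protease ADAMTS2 (0.88). ZEB1 was closest to ZNF354A (0.898), TRNT1 (0.894) and BIRC2 (0.891), and SNAI1 to ECE2 (0.858), YAF2 (0.806) and FBXW9 (0.805). ZEB2 was closest to ERMAP (0.899), PTER (0.844) and GALNT5 (0.844), but PTER followed ZEB2 in the 8 Hs578 libraries only (0.959, against -0.658 in the 8 TT642 libraries). SNAI1 and TWIST2 averaged below 2 and were not among the genes searched. ZEB1, ZEB2, SNAI2 and TWIST1 were not among the 3 nearest genes of another member.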

How the data were processed

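RNA sequencing of polyadenylated RNA was done from 500 ng of total RNA with a stranded kit, per the labels' protocols. The authors deposited raw counts for 20114 gene symbols, and FPKM values, scaled by length and depth, for 20111 genes. The submitters' processing notes name hg19. No source used here gives the aligner, counter, annotation or use of strand, so reads that overlap genes or antisense transcripts at the ZEB and TWIST loci could not be told apart. The members and the gene lists were chosen with earlier results of these data known.

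Counts of all 16 libraries were fitted with edgeR 4.0.16 (quasi-likelihood, robust, TMM, default expression filter) in R 4.3.3, with 1 mean for each of 8 groups and 8 residual degrees of freedom. The filter kept 14035 genes. Tests were two-sided, adjusted by Benjamini-Hochberg over all genes, and called under 0.05. SE is the log2 fold change divided by the root of the F statistic. An exact permutation test of 3 against 3 libraries cannot go below p = 0.1 and was not used. DESeq2 1.42.0 and limma 3.58.1 on log2(FPKM + 1) and log2(FPKM + 0.1) were alternatives, beside other scaling and filtering, a replicate block and leaving out libraries. The procedure was tested on simulated counts. The rule for names took the 6 members, PRRX1, CDH1, CDH2, VIM, up to 4 called genes per list with the largest changes and the 3 nearest genes of each member. KRT18, FN1, SMARCB1 and the other markers come from a list of markers.

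Libraries with the same hairpin number are the same derived line per the labels, so the numbers pair them. The main tests did not use this pairing, which was fitted as the replicate block among the alternatives. For hairpins 1, 2 and 3 the paired libraries' deviations from their group means had correlations of 0.128, -0.028 and 0.001 (Hs578) and of 0.44, 0.415 and 0.421 (TT642). Unmatched hairpin numbers gave -0.114 to 0.109 in Hs578 and -0.303 to -0.094 in TT642. The libraries of a hairpin group, each with a different hairpin, differed by more than sampling noise (lowest chi-square per degree of freedom 5.35).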

Additional observations from a re-analysis of the deposited data

How the results depend on the processing

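All called results of the 6 factors kept their direction under every alternative run. The number of members called in the Hs578 hairpin lines was 2 by DESeq2 and 2 by limma on log2(FPKM + 1). Of all 14035 genes, these called 4166 and 4464. Leaving out 1 hairpin or library gave 0 to 3 members, while the number of all genes called ran from 840 to 4768. TWIST1 there was 0.54 by limma on log2(FPKM + 0.1) and 0.43 to 0.84 with libraries left out. Leaving out libraries gave 0 to 1 members called for the difference of the lines, where 2 to 2082 of all genes were called. For Hs578 against TT642 it gave 3 to 5 members, where 10284 to 11051 of all genes were called. In that comparison SNAI1 ran from 0.67 to 1.25, TWIST2 from 0.30 to 0.81 and SNAI2 from -0.0859 to 0.1267. The pairing by replicate block changed no call of a member (TWIST1 in Hs578 was 0.66 with it).

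Some results changed sign, all of them uncalled but that of WTIP, and the cause was not tested. Net of parental cells, SNAI2 in Hs578 was -0.011 with relative log expression scaling, -0.0188 with the block and -0.0122 by DESeq2. By FPKM the line difference of SNAI2 was -0.1553 with a pseudocount of 1 and -0.1589 with 0.1, the interaction of ZEB1 was -0.0935 and -0.0584, CDH2 in Hs578 was -0.1897 and -0.1924, and WTIP was -0.0159 and -0.017. With libraries left out, the doxycycline effects ran from -0.275 to 0.0857 for ZEB1, from -0.40 to 0.04 for ZEB2 and from -0.0386 to 0.1675 for CDH2 in Hs578. In TT642 they ran from -0.5492 to 0.031 for ZEB1, from -0.0796 to 0.0672 for ZEB2, from -0.7507 to 0.0913 for SNAI1, from -0.44 to 0.12 for TWIST1 and from -0.64 to 0.17 for CDH2. The interaction of ZEB1 ran from -0.25 to 0.56. Net of parental cells, SNAI2 in Hs578 ran from -0.40 to 0.32, and in TT642 ZEB2 from -0.0209 to 0.1247, SNAI1 from -0.70 to 0.14 and TWIST1 from -0.0039 to 0.56. TWIST1 in uninduced Hs578 hairpin lines against parental cells ran from -0.0455 to 0.037.

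The background counts moved more. In Hs578, 4118 genes were called, and refits with libraries left out called 840 to 4768. The 4 of TT642 became 8 with no filter, 2 with the line alone, 46 with the block, 74 by DESeq2, 13 by limma on log2(FPKM + 1), and 0 to 6 with libraries left out. The 735 of the interaction became 1763 with the block, 1404 by DESeq2, 1118 by limma on log2(FPKM + 1), and 2 to 2082. The 57 net of parental Hs578 cells became 2 with the line alone, 140 with the block, 296 by DESeq2, 13 by limma on log2(FPKM + 0.1), and 0 to 139; in TT642 the 0 became 1 by limma on log2(FPKM + 1). Between hairpin lines and parental cells, the 129 of TT642 became 54 with the line alone, 213 by DESeq2, 78 by limma on log2(FPKM + 0.1), and 74 to 171, and the 0 of Hs578 became 1 with either pseudocount. SNAI1 in both lines and TWIST1 in TT642 rest on 8 to 53 counts per library, which limits what could be detected.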
